A study of Mus musculus with 6 samples.

Results

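The 46 genes described here encode actins, actin-binding proteins, myosin II chains, focal adhesion proteins and the SRF transcription factor with its cofactors. They were taken by gene symbol from a table of 21240 counted genes, and every listed symbol was found. RNA came from NMuMG cells, an epithelial line derived from normal mouse mammary gland, with no genetic change in any group. All cultures were kept for 6 h without serum and insulin. One group was then treated with 5 ng/ml of TGFβ1 during 2 h and another during 12 h, while control cultures had vehicle, the acid and albumin diluent of the cytokine, during 2 h. Each of the 3 groups has 2 biological replicates, so that 6 stranded total RNA libraries were available. No vehicle culture was taken at 12 h, and a change at 12 h can therefore not be told apart from one due to more hours in serum-free medium. The study's methods describe the replicates as biological and independent, and p-values measure the spread between these libraries.

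Actin filaments give epithelial cells their shape, and myosin II pulls on them to generate tension. Tropomyosins, calponins and caldesmon bind along the filament, filamins and α-actinins link filaments to each other, and zyxin, talin, vinculin and paxillin couple them to integrins at focal adhesions. Cofilin takes filaments apart. When free monomeric actin is used up, the cofactors Mkl1 and Mkl2 (also called MRTF-A and MRTF-B) enter the nucleus and activate SRF, which binds CArG boxes in promoters of many contractile genes. TGFβ is known to induce stress fibers during epithelial-mesenchymal transition.

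Total counts ranged from 14705886 to 23786993 per library. The epithelial label was compared with marker genes. E-cadherin (Cdh1) was at 392, 530 and 372 mean CPM (counts scaled to a common library size) in vehicle, 2 h and 12 h, and the keratins Krt8 and Krt18 were above 1000 CPM in every library, with a log2FC (log2 fold change) of 1.63 and 1.53 at 12 h against vehicle (edgeR's quasi-likelihood test, adjusted p = 0.000114 and 0.000275). The keratin Krt19 went from 1757 mean CPM in vehicle and 1727 at 2 h to 455 at 12 h, a 3.86-fold fall (log2FC of -1.95 ± 0.128, edgeR adjusted p = 0.000103), and the tight junction gene Ocln, at 74.6, 62.2 and 52.0 mean CPM, was not called. Of the other epithelial markers, Epcam, Cldn3, Esrp1 and Grhl2 stayed below 2 CPM throughout. Of the smooth muscle markers, Lmod1 and Myocd were at 0 in all 6 libraries, Myh11 and Des were at or below 0.404 CPM, and only Smtn was expressed, at 67.5, 156 and 126 mean CPM. Of the myoepithelial and basal markers, Krt14 was at 3.40, 9.25 and 6.39 mean CPM, and Krt5, Krt17, Trp63 and Oxtr stayed below 0.5 CPM. The skeletal muscle markers Myh1, Myh4, Myog and Myod1 were at 0 in every library and Ckm was at most at 0.0436 CPM. Fibroblast, leukocyte and endothelial markers did not pass 7 CPM in any library, although Pdgfrb went from 0 in vehicle to 1.15 CPM at 12 h and Cdh5 from 0.0932 to 1.77 CPM. Their part in the results was not tested.

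The actin cytoskeleton genes made up more of the counted RNA after TGFβ1. Together the 46 genes held 1.301% and 1.369% of all counts in the vehicle libraries, 1.56% and 1.82% at 2 h, and 3.002% and 3.004% at 12 h. The 12 h mean was 2.25 times the vehicle mean. Actb, which encodes cytoplasmic β-actin, gave 37.6% of that increase, the myosin heavy chain Myh9 gave 21.1% and the filamin Flna gave 16.5%. The other 43 genes went from 0.641% ± 0.0164 to 1.05% ± 0.0122 of all counts (SD, n = 2). Groups of 2 libraries allow no exact permutation p below 0.333, and no p is given for these shares. Because these are bulk libraries, more cells expressing a gene and more RNA per expressing cell cannot be told apart.

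Of the 46 genes, 38 passed the filter on low counts of at least 2 CPM in at least 2 libraries, as did 11080 genes in all. At 2 h, 9 of these 38 were called higher than vehicle by edgeR's quasi-likelihood test at a Benjamini-Hochberg adjusted p under 0.05, where 9.91% of all genes tested were called higher. None was called lower, where 5.25% of all genes were. Limma-voom and DESeq2 also called 0 lower. At an unadjusted p under 0.05 edgeR gave 1 lower, the calponin Cnn3, and 17 higher. Of all 11080 genes tested, 1422 were lower and 1867 higher at that limit. With the replicate number as a block, edgeR called 19 of the 38 higher and 3 lower at 2 h (Fhl1, Pdlim5 and Cfl2), in a fit that called 29.1% of all genes in either direction instead of 15.2%. At 12 h, 26 were higher and 3 lower, against 21.8% and 21.5% of all genes tested. Between 2 h and 12 h, 22 were higher and 3 lower at the later time, against 15.2% and 18.9%. The median log2FC of the 38 was 0.32 at 2 h and 0.86 at 12 h against vehicle, where the medians over all genes tested were -0.01 and 0.02. With total counts in place of TMM scaling, the calls over all genes at 12 h were 1830 higher and 3047 lower instead of 2414 and 2385, and at 2 h 854 and 975 instead of 1098 and 582. Among the 38 genes they were then 23 higher and 3 lower at 12 h and 8 higher at 2 h. The 2 h and 12 h comparisons share the vehicle libraries.

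With an absolute log2FC above 1 also required, 5 genes were called higher at 2 h (4.23% of all genes tested), namely Tnnt2, Actn1, Zyx, Tns1 and Pdlim7, and none lower (2.01% of all). Without 2 h replicate 1 this count was 9. At 12 h these 5 and 11 others were called, 16 in all, against 8.03% of all genes tested. The 11 were Actb, Actg1, Tagln2, Cnn2, Tpm4, Cald1, Myl12a, Myh9, Flna, Palld and Mkl1. The 3 genes called lower, Mylk, Lima1 and Fhl1, also passed this limit, as did 11.6% of all genes tested. Between 2 h and 12 h, 11 genes were higher by this limit (4.5% of all genes tested) and the same 3 were lower (9.87% of all). Both 2 h libraries lay above both vehicle libraries for 23 of the 38 genes (28.3% of all genes tested). Both 12 h libraries did so for 29 (39.5%) and lay below vehicle for 5 (37.2%). In timing, by edgeR without a block, 7 genes were higher at 2 h and higher again at 12 h (2.38% of all genes tested), and 15 were called higher at 12 h and against 2 h but not at 2 h (8.4%). Mylk, Lima1 and Fhl1 were called lower in that same way (13.5%), and Actn4 and Pxn were called higher at both times with no call between them (4.78%). In the same fit Vasp and Actg1 were called at 12 h against vehicle alone (5.42% of all genes tested), and 9 genes were called in no comparison (48%). These groups rested on the fit. Of the 15 genes, DESeq2 called 5 at 2 h as well (Actb, Tpm3, Flna, Palld and Tln1), and edgeR with the block called these and Tagln2 and Cald1. DESeq2 also called Vasp and Fhl2 at 2 h (adjusted p = 0.0164 and 0.0126), and the block called Vasp, Actg1 and Fhl2 higher and Fhl1 lower.

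**Figure D1:**
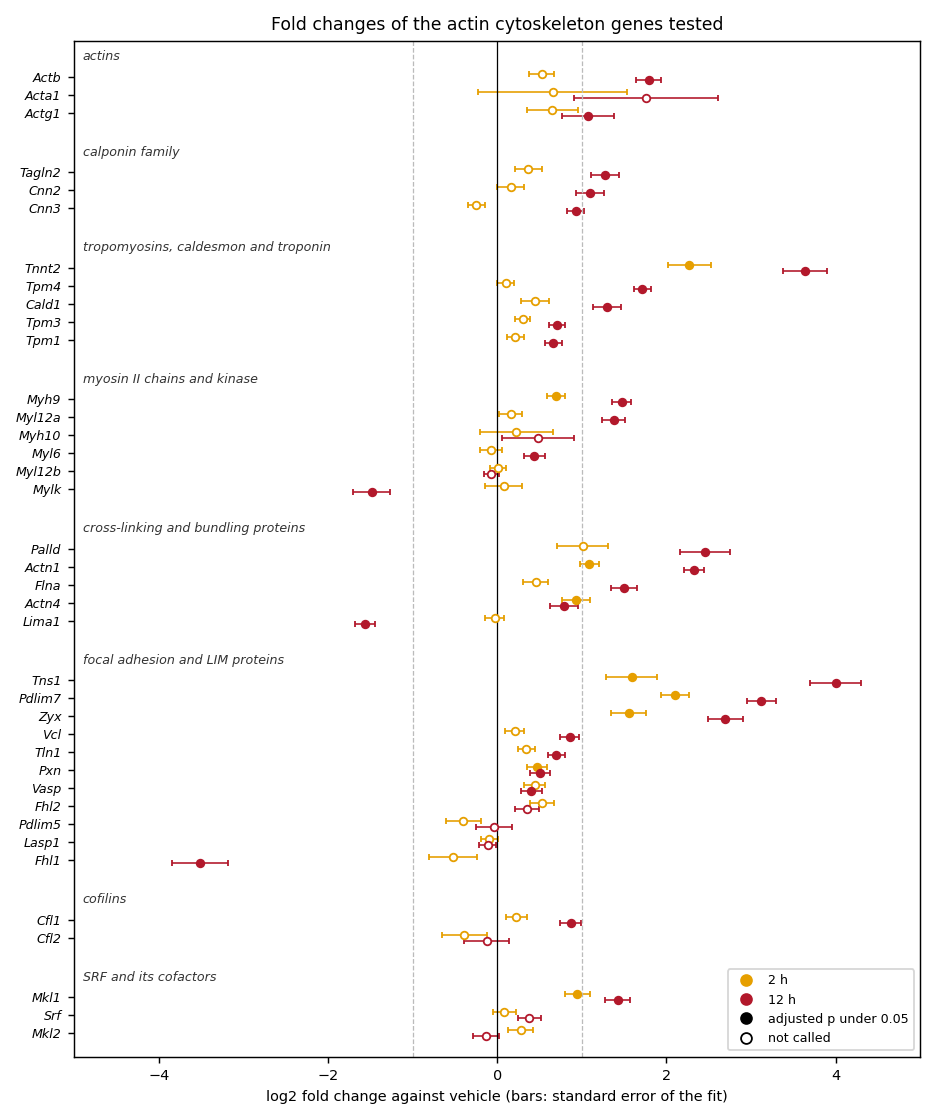
Log2 fold change against vehicle (horizontal axis) of the 38 genes tested at 2 h (orange) and 12 h (red), grouped by role, with the standard error of the edgeR fit as bars. Filled points have an adjusted p under 0.05, dashed lines mark an absolute log2FC of 1, and 26 genes have filled red points to the right of 0 against 3 to the left.

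Promoters were searched for the binding sequences of SRF (the CArG box, CCWWWWWWGG with W as A or T), TEAD factors (CATTCC) and AP-1 (TGANTCA), on both strands. Only exact matches were counted, so boxes with a mismatch or outside the windows were missed. The windows run from 250 bases before to 50 bases after a gene start in RefSeq on GRCm38.p6. Windows were given for 40 of the 46 genes, 52 windows in all, and no entry was found for Actb, Actg2, Tagln, Synpo, Pxn and Tgfb1i1. A CArG box stood in 21.2% of these windows, compared with 1.63% of all 32851 windows in the table. The shares for CATTCC were 26.9% and 14.7%, and those for TGANTCA were 13.5% and 7.81%. These shares describe letters in a window and not bound sites, and no box overlapped a match of the other motifs.

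The boxes belonged to 10 genes, and they are printed because SRF and both its cofactors are among the genes described. Each line gives the box in capitals with 10 bases on either side, 5′ to 3′ on the strand of the gene.
Acta1: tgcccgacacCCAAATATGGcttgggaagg
Actg1: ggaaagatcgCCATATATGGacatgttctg
Cnn2: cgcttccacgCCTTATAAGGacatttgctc
Myl6: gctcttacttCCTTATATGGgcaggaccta
Myl9: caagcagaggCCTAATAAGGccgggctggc
Lima1: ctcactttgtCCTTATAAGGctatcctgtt
Vcl: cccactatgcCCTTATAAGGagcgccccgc
Fhl1: ccttggatcaCCTAAAATGGttaagaattt
Fhl2, first window: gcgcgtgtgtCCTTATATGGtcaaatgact
Fhl2, second window: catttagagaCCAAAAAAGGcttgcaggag
Srf, distal box: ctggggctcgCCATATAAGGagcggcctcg
Srf, proximal box: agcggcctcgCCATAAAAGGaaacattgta

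On GRCm38.p6 the printed stretches lie at chr8:123894829-123894858 (minus strand) for Acta1, chr11:120348566-120348595 (minus) for Actg1, chr10:79988534-79988563 (plus) for Cnn2 and chr10:128493040-128493069 (minus) for Myl6. Those of Myl9, Lima1, Vcl and Fhl1 lie at chr2:156775293-156775322 (plus), chr15:99820177-99820206 (minus), chr14:20929161-20929190 (plus) and chrX:56779571-56779600 (plus). The Fhl2 stretches lie at chr1:43163973-43164002 and chr1:43196838-43196867, and the Srf stretches at chr17:46556225-46556254 and chr17:46556205-46556234, all on the minus strand. The 5′-most base of the box stood 31 to 227 bases before the gene start. Cnn2, Lima1 and Vcl carried the same 10-base box. Lima1 fell at 12 h, while Cnn2 and Vcl rose.

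Genes with a CArG box in a window did not all move one way. Of the 9 tested, 4 were called higher at 12 h (Actg1, Cnn2, Myl6 and Vcl), 2 lower (Lima1 and Fhl1) and 3 were not called, where 21.8% of all genes tested were higher and 21.5% lower, and their median log2FC was 0.44. Of the 27 tested genes that had windows without a box, 20 were called higher, 1 (Mylk) lower and 6 were not called, with a median of 0.93. With the replicate number as a block, the 3 uncalled genes with a box, Acta1, Fhl2 and Srf, were also called higher (edgeR adjusted p = 0.000961, 0.0224 and 0.0117). The difference in the share called higher therefore rested on the fit. The lower calls of Lima1, Fhl1 and Mylk held under all 14 alternatives. No test was made of these shares.

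**Figure D2:**
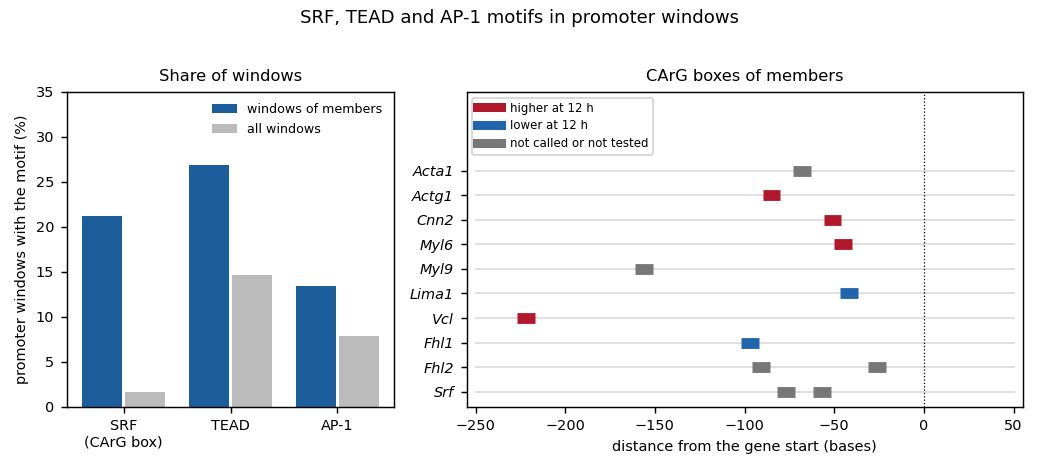
Left, percent of promoter windows that hold the SRF, TEAD or AP-1 motif among the 52 windows of the genes described (blue) and all 32851 windows (gray). Right, position of each CArG box in bases from the gene start, colored by the call of the gene at 12 h; the Fhl2 boxes lie before 2 different starts, and Myl9 was not tested.

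Among the actins, the cytoplasmic forms were called higher at 12 h and the muscle forms were scarce. Actb (chr5:143664794-143668433 on NCBIM37, minus strand) stood at 2679 and 2823 CPM in vehicle, 3458 and 4457 CPM at 2 h, and 9655 and 9355 CPM at 12 h. The 12 h libraries were far above all others, and both 2 h libraries lay above both vehicle libraries. By edgeR's quasi-likelihood test its log2FC was 1.79 ± 0.149 (SE) at 12 h, with an adjusted p of 0.000224, and 0.52 ± 0.145 at 2 h, with an adjusted p of 0.0573. At 2 h it was called by DESeq2 (adjusted p = 0.00547), and by edgeR with the block and without 2 h replicate 1 (adjusted p = 0.015 and 0.0184).

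Actg1, cytoplasmic γ-actin, stood at 19.6 and 27.4 CPM in vehicle, 25.8 and 48.0 CPM at 2 h, and 46.1 and 52.9 CPM at 12 h. Its 2 h libraries overlapped the other groups on either side. The log2FC of 1.08 ± 0.305 at 12 h had an edgeR adjusted p of 0.0286, and the call was lost without vehicle replicate 1 or without either 12 h library, with edgeR adjusted p up to 0.142, and with total counts in place of TMM factors (0.0503). Only uniquely mapped reads were counted, and 36.2% of the 50-base windows in Actg1 exons occurred once in the genome, so reads from its other windows were not counted.

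Acta1, skeletal muscle α-actin, stood at 0.648 and 2.42 CPM in vehicle, 0.810 and 3.99 CPM at 2 h, and 3.27 and 7.09 CPM at 12 h. Replicate 2 was higher in each group, by more than for any other gene tested in the set, and edgeR called no comparison (log2FC of 1.76 ± 0.849 at 12 h, adjusted p = 0.140). This rested on the fit, because at 12 h Acta1 was called with the replicate number as a block (log2FC of 1.85, edgeR adjusted p = 0.000961), without 2 h replicate 1 or 2 (edgeR adjusted p = 0.0426 and 0.0427) and in the fit of 2 groups (0.0413). Against 2 h it was called with the block (log2FC of 1.25, edgeR adjusted p = 0.00641) and without 2 h replicate 2 (2.66, adjusted p = 0.0457). Acta2, the smooth muscle α-actin often used as a myofibroblast marker, had 4 and 4 counts in vehicle, 17 and 6 at 2 h, and 15 and 11 at 12 h. Actg2, its enteric relative, had 2 and 9, then 3 and 19, then 24 and 33 counts. Both were under the filter, and without it neither was called at 12 h (edgeR adjusted p = 0.199 and 0.102).

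Levels per kilobase of exon count only uniquely mapped reads, so that a gene with few unique windows (12.5% in Myl6, 36.2% in Actg1, 64.9% in Cfl1, 90.6% in Actb) is understated and the order is one of counted reads. On this scale Actb was the highest of the 46 in every group, at 1027, 1477 and 3548 mean CPM per kb in vehicle, 2 h and 12 h. The cofilin Cfl1 came next with 626, 732 and 1146 CPM per kb. In vehicle Flna and Myh9 followed at 175 ± 4.67 and 168 ± 4.45 CPM per kb (SD, n = 2), with Flna the higher in both libraries. At 12 h Flna (495), Myh9 (466), Tpm4 (443) and Actn1 (302) followed, after Tpm4 and Actn1 had stood at 135 and 60.3 CPM per kb in vehicle. Acta2 was at 0.138 CPM per kb in vehicle and 0.342 at 12 h.

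**Figure D3:**
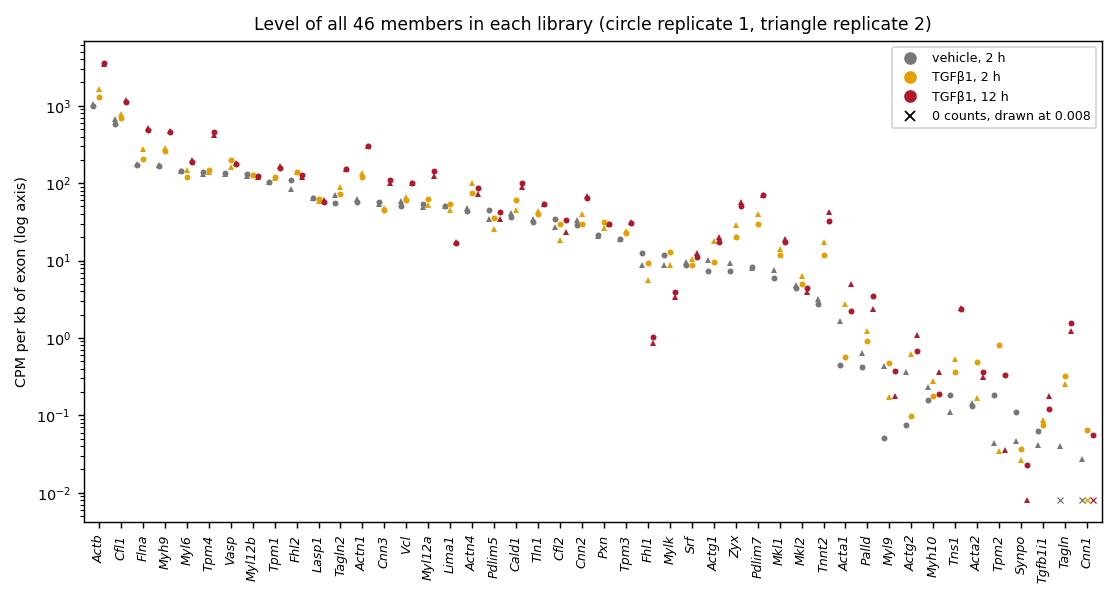
Level of all 46 genes in CPM per kilobase of exon (vertical log axis) in each library, ordered by the vehicle mean, with vehicle in gray, 2 h in orange and 12 h in red. Actb is highest in every library, and crosses at the foot mark libraries with 0 counts of Tagln or Cnn1.

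The calponin family, which binds along actin filaments, rose in its non-muscle members. Tagln2 stood at 114 and 148 CPM in vehicle, 151 and 187 CPM at 2 h, and 315 and 319.7 CPM at 12 h. Cnn2 stood at 69.9 and 82.8, then 72.6 and 97.6, then 158 and 168 CPM, and Cnn3 at 115 and 106, then 91.3 and 95.3, then 217 and 204 CPM. In all 3 genes the 12 h libraries were separate from the rest, and in Cnn3 the 2 h libraries lay below vehicle. Log2FC at 12 h was 1.27 ± 0.162 for Tagln2, 1.09 ± 0.165 for Cnn2 and 0.93 ± 0.10 for Cnn3, with edgeR adjusted p of 0.00115, 0.00238 and 0.000604. None was called at 2 h by edgeR without a block, and with the block Tagln2 was (log2FC of 0.37, edgeR adjusted p = 0.033). Against 2 h, Cnn3 rose by a log2FC of 1.17 ± 0.10 (edgeR adjusted p = 0.000554).

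The smooth muscle members of that family were near absent. Tagln, which encodes transgelin (SM22), had 0 and 1 counts in vehicle, 10 and 8 at 2 h, and 57 and 38 at 12 h. The groups did not overlap, yet the highest value was 2.48 CPM and a single library passed 2 CPM, so the filter removed it. The ratio of pooled normalized counts at 12 h to vehicle, from 95 and 1 counts, was 73.2 with an exact 95% interval of 12.8 to 2920 that covers counting error only. Without the filter, edgeR's quasi-likelihood test gave a log2FC of 5.91 with an adjusted p of 0.00026 at 12 h and 3.63 with 0.0323 at 2 h. Cnn1, smooth muscle calponin, had at most 3 counts in any library.

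Among the tropomyosins, which lie in the groove of the filament, Tpm4 moved most. It stood at 302 and 292 CPM in vehicle, 328 and 310.3 CPM at 2 h, and 1018 and 935 CPM at 12 h. The 2 h libraries were barely above vehicle, and those of 12 h were 3.28-fold higher. Log2FC was 0.10 ± 0.101 at 2 h (edgeR adjusted p = 0.552), 1.72 ± 0.104 at 12 h (adjusted p = 8.27e-05) and 1.61 ± 0.103 between the times (adjusted p = 0.00025). Tpm1 and Tpm3 rose less, with a log2FC of 0.66 ± 0.0989 and 0.70 ± 0.0939 at 12 h. Tpm2 was under the filter, with 9 and 2, then 47 and 2, then 22 and 2 counts, where replicate 1 was the higher in every group.

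Cald1, caldesmon, which inhibits myosin binding to actin, stood at 279 and 312 CPM in vehicle, 462 and 345 CPM at 2 h, and 778 and 679 CPM at 12 h. Both treated groups lay above vehicle, and the log2FC was 1.30 ± 0.166 at 12 h (edgeR adjusted p = 0.00119). Tnnt2, cardiac troponin T, is the tropomyosin-binding subunit of the troponin complex. It stood at 3.06 and 3.57 CPM in vehicle, 12.9 and 19.2 CPM at 2 h, and 36.3 and 46.4 CPM at 12 h. These groups were widely separated, with a log2FC of 2.27 ± 0.259 at 2 h and 3.64 ± 0.263 at 12 h (edgeR adjusted p = 0.00262 and 0.000144). This was 12.5-fold at 12 h, but from a level of 2.998 CPM per kb in vehicle.

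Of the myosin II chains, Myh9, Myl12a and Myl6 were called higher at 12 h, and Myh10 and Myl12b were not called. Myh9, the non-muscle heavy chain IIA, stood at 2133 and 2215 CPM in vehicle, 3338 and 3701 CPM at 2 h, and 5931 and 6123 CPM at 12 h. Each group lay clear of the one before. Log2FC was 0.70 ± 0.110 at 2 h and 1.47 ± 0.111 at 12 h (edgeR adjusted p = 0.00854 and 0.000164), and the call at 2 h was lost without vehicle replicate 1 (adjusted p = 0.062). Myh10, heavy chain IIB, lay between 1.65 and 3.75 CPM in all libraries and was not called.

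The regulatory light chain genes Myl12a and Myl12b are neighbors on chromosome 17, on the minus strand and 2.868 kb apart on NCBIM37 (71342996 to 71352218 and 71323260 to 71340127). Myl12a stood at 171 and 158 CPM in vehicle, 199 and 169 CPM at 2 h, and 465 and 389.9 CPM at 12 h. Only its 12 h libraries stood apart, with a log2FC of 1.38 ± 0.138 (edgeR adjusted p = 0.000439). Myl12b kept between 204 and 222 CPM in all 6 libraries, with a log2FC of -0.07 ± 0.092 at 12 h (adjusted p = 0.578). The essential light chain Myl6 had a log2FC of 0.44 ± 0.127 at 12 h (edgeR adjusted p = 0.0304), a call lost when any 1 vehicle or 12 h library was left out and with total counts in place of TMM factors (adjusted p = 0.112), and 12.5% of its exon windows were unique. Myl9, the smooth muscle light chain, had 1 and 8, then 11 and 4, then 10 and 4 counts.

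Mylk, the kinase that phosphorylates the regulatory light chains, fell. It stood at 124 and 94.1 CPM in vehicle, 136 and 93.2 CPM at 2 h, and 42.1 and 35.7 CPM at 12 h. Vehicle and 2 h overlapped, and both 12 h libraries were below them. Log2FC was -1.48 ± 0.222 at 12 h and 0.08 ± 0.215 at 2 h (edgeR adjusted p = 0.00229 and 0.848).

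Of the 5 cross-linking and bundling genes tested, 4 rose at 12 h and 1 fell, where 21.8% of all genes tested were called higher and 21.5% lower. Actn1, a non-muscle α-actinin that bundles stress fibers, stood at 219.7 and 239 CPM in vehicle, 455 and 519.8 CPM at 2 h, and 1159.9 and 1138 CPM at 12 h. The groups were clear of each other at both steps. It rose 2.13-fold by 2 h (log2FC of 1.09 ± 0.113) and 5.01-fold by 12 h (2.32 ± 0.117), with edgeR adjusted p of 0.00188 and 4.9e-05. Actn4, the other non-muscle α-actinin, stood at 221 and 242 CPM in vehicle, 376 and 508 CPM at 2 h, and 429.6 and 368 CPM at 12 h. Its 2 treated groups overlapped. Log2FC was 0.93 ± 0.167 and 0.79 ± 0.167 (edgeR adjusted p = 0.0138 and 0.00942), and -0.15 ± 0.165 between the times (adjusted p = 0.526). The call at 2 h was lost without either vehicle library (adjusted p up to 0.0922), and that at 12 h without vehicle replicate 1 or 12 h replicate 1 (up to 0.0734).

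Flna, filamin A, which holds filaments in orthogonal networks, stood at 1614 and 1676 CPM in vehicle, 1952 and 2557 CPM at 2 h, and 4521 and 4787 CPM at 12 h. The 2 h libraries differed from each other by more than vehicle differed from the lower of them. Log2FC was 0.45 ± 0.148 at 2 h (edgeR adjusted p = 0.0923) and 1.50 ± 0.151 at 12 h (adjusted p = 0.000448). At 2 h Flna was called by DESeq2 (adjusted p = 0.0278), and by edgeR with the block and without 2 h replicate 1 (adjusted p = 0.0213 and 0.0211). Palld, palladin, a scaffold that binds α-actinin, stood at 3.59 and 5.48 CPM in vehicle, 7.74 and 10.5 CPM at 2 h, and 29.3 and 20.3 CPM at 12 h. The groups did not overlap, and log2FC was 1.01 ± 0.299 at 2 h (edgeR adjusted p = 0.0707) and 2.46 ± 0.30 at 12 h (adjusted p = 0.000986). At 2 h Palld was called in the same 3 alternatives (DESeq2 adjusted p = 0.0235, edgeR adjusted p = 0.0243 and 0.0397).

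Lima1, also called EPLIN, stabilizes filaments at epithelial junctions. It stood at 363.5 and 359 CPM in vehicle, 384.5 and 323 CPM at 2 h, and 120.0 and 125 CPM at 12 h. Values at 2 h spread around those of vehicle, and those at 12 h were 2.95-fold lower. Log2FC was -1.56 ± 0.118 (edgeR adjusted p = 0.000164). Synpo, synaptopodin, had 18 and 7 counts in vehicle, 7 and 5 at 2 h, and 5 and 1 at 12 h. It was under the filter, and without it edgeR's quasi-likelihood test gave an adjusted p of 0.0459 at 12 h.

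Of the 11 focal adhesion and LIM genes tested, 4 were called higher at 2 h, and 7 were higher and 1 was lower at 12 h. Of all genes tested, 9.91% were higher at 2 h, and 21.8% were higher and 21.5% lower at 12 h. Zyx, zyxin, which gathers at stretched stress fibers, stood at 27.7 and 34.5 CPM in vehicle, 74.6 and 108 CPM at 2 h, and 192 and 211 CPM at 12 h. Pdlim7, a PDZ and LIM protein of stress fibers also called Enigma, stood at 39.9 and 38.6, then 142 and 195, then 344 and 339.5 CPM. Tns1, tensin 1, which ties integrins to actin, stood at 2.00 and 1.21, then 3.95 and 5.80, then 25.5 and 26.3 CPM. All 3 genes rose at each step with no overlap between groups.

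The fold at 12 h was 6.47 for Zyx, 8.69 for Pdlim7 and 15.98 for Tns1, which was the highest among the 38 genes tested. In edgeR's quasi-likelihood test the log2FC of Zyx was 1.55 ± 0.202 at 2 h and 2.69 ± 0.208 at 12 h (adjusted p = 0.00424 and 0.000177). For Pdlim7 it was 2.10 ± 0.163 and 3.12 ± 0.169 (edgeR adjusted p = 0.000725 and 5.47e-05). For Tns1 it was 1.59 ± 0.302 and 4.00 ± 0.299 (edgeR adjusted p = 0.017 and 0.000159), and the call at 2 h was lost without vehicle replicate 2 or either 12 h library, with adjusted p up to 0.0853, and in the fit of 2 groups (0.0707).

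Vcl (vinculin) and Tln1 (talin) were called at 12 h, with a log2FC of 0.86 ± 0.112 and 0.70 ± 0.103 (edgeR adjusted p = 0.00133 and 0.00214). Pxn (paxillin) had 0.47 ± 0.116 at 2 h and 0.51 ± 0.116 at 12 h (edgeR adjusted p = 0.0396 and 0.0126), and Vasp, which speeds filament growth, had 0.44 ± 0.125 and 0.40 ± 0.125 (adjusted p = 0.0603 and 0.0391). The Pxn call at 2 h was lost without any 1 library except 2 h replicate 2, in the fit of 2 groups and with total counts (edgeR adjusted p = 0.114 and 0.0651), and the 12 h calls of Pxn and Vasp without any 1 vehicle or 12 h library. That of Vasp was also lost with total counts (0.0987). Lasp1, Fhl2 and Pdlim5 were called in no comparison by edgeR with all libraries, the filter and no block. Fhl2 at 2 h, with a log2FC of 0.53 (edgeR adjusted p = 0.0528), was called by limma-voom and DESeq2 (adjusted p = 0.0485 and 0.0126), and by edgeR without the filter, without vehicle replicate 1 and with the block (adjusted p = 0.0456, 0.0422 and 0.00696). At 12 h edgeR called it with the block and without vehicle replicate 1 (adjusted p = 0.0224 and 0.0306). With the block Pdlim5 was called lower at 2 h and higher at 12 h against 2 h (edgeR adjusted p = 0.0113 and 0.00907). Tgfb1i1, the paxillin relative Hic-5, had 5 and 3, then 7 and 8, then 13 and 16 counts.

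Fhl1, a LIM-only protein known from muscle, showed the largest fall. It stood at 47.1 and 32.9 CPM in vehicle, 34.98 and 20.6 CPM at 2 h, and 3.79 and 3.19 CPM at 12 h. Vehicle and 2 h overlapped, and the 12 h libraries were 11.4-fold below vehicle. Log2FC was -3.51 ± 0.326 at 12 h and -0.53 ± 0.283 at 2 h (edgeR adjusted p = 0.000327 and 0.273).

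Of the cofilins, Cfl1 rose by a log2FC of 0.87 ± 0.124 at 12 h (edgeR adjusted p = 0.00185), with 64.9% of its exon windows unique, and the muscle form Cfl2 was not called (-0.12 ± 0.269). The SRF cofactor Mkl1 stood at 36.7 and 46.3 CPM in vehicle, 73.0 and 86.7 CPM at 2 h, and 108 and 114.5 CPM at 12 h. Its groups did not overlap. Log2FC was 0.95 ± 0.149 at 2 h and 1.42 ± 0.150 at 12 h (edgeR adjusted p = 0.00851 and 0.00054), and the call at 2 h was lost without vehicle replicate 1 (adjusted p = 0.0561). Srf itself, whose promoter carries the 2 boxes printed above, had a log2FC of 0.08 ± 0.136 and 0.38 ± 0.136 (edgeR adjusted p = 0.731 and 0.0622). The other cofactor, Mkl2, had 0.28 ± 0.150 at 2 h and -0.13 ± 0.151 at 12 h (edgeR adjusted p = 0.274 and 0.513). Its log2FC at 12 h against 2 h was -0.41 ± 0.150 (edgeR adjusted p = 0.0768). That fall was called by edgeR with the block and without 2 h replicate 1.

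**Figure D4:**
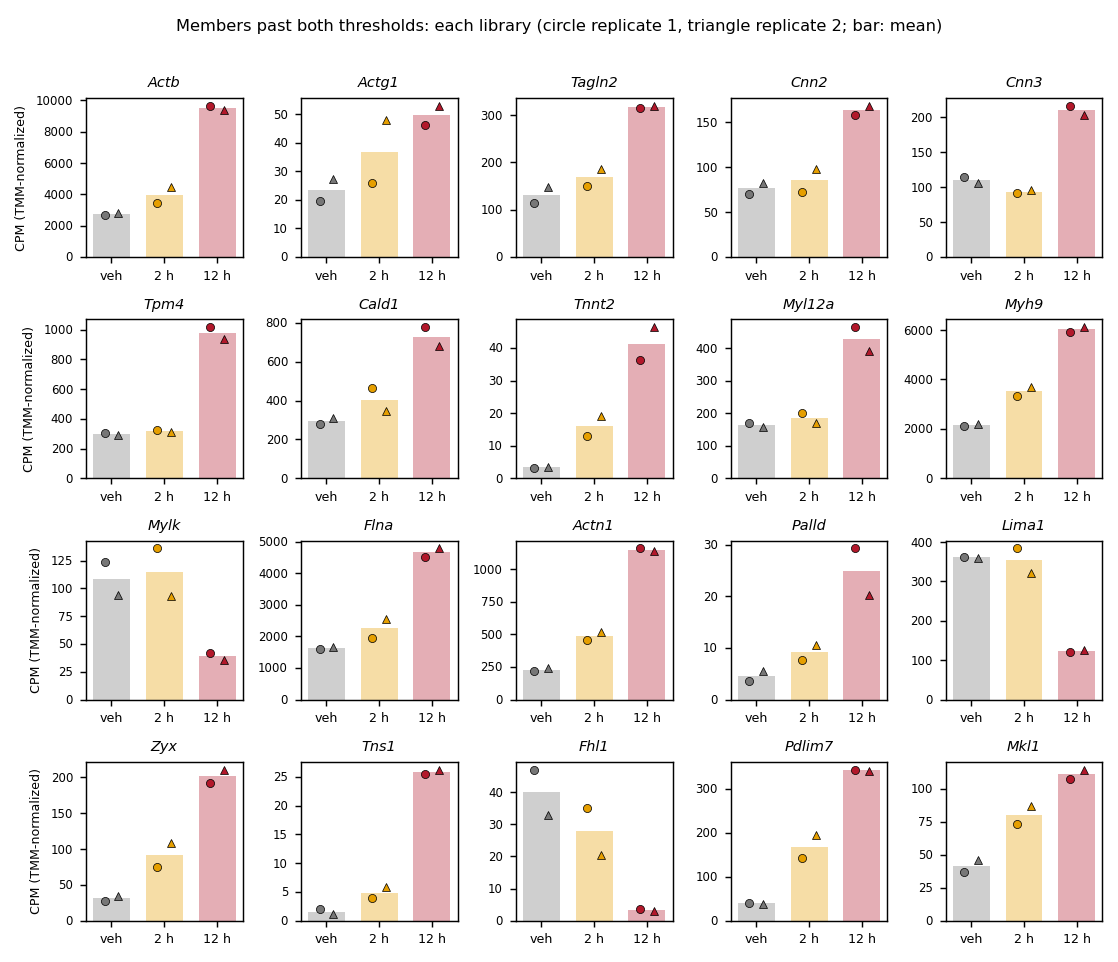
TMM-normalized CPM (vertical axes, each from 0) of the 20 genes called with an absolute log2FC above 1 in at least 1 comparison, in vehicle (gray), 2 h (orange) and 12 h (red). Points are libraries and bars their mean; 17 genes are higher at 12 h, and Mylk, Lima1 and Fhl1 are lower.

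Related genes were also followed as pairs. The log2 ratio of 2 genes within a library does not depend on scaling. Its change from the vehicle mean was followed for 9 chosen pairs of close relatives among the genes tested, a choice made after values had been seen. Other relatives, such as Tpm1, Tpm3 and Tpm4, were not paired. Myl12a gained on Myl12b by 1.44 ± 0.158 at 12 h (SD, n = 2), Actn1 on Actn4 by 1.54 ± 0.138, and Mkl1 on Mkl2 by 1.56 ± 0.193. Pdlim7 gained 3.15 ± 0.199 on Pdlim5, and Fhl1 lost 3.86 against Fhl2, a change of -3.86 ± 0.114. Actb gained 0.70 ± 0.172 on Actg1, Cfl1 1.01 ± 0.432 on Cfl2, and Myh9 1.03 ± 0.629 on Myh10. Cnn2 changed by 0.17 ± 0.127 against Cnn3, where 1 of the 2 ratios at 12 h lay within the vehicle range. As with the shares, no p is given. At 2 h the ratio of Actn1 to Actn4 had changed by 0.17 ± 0.172.

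**Figure D5:**
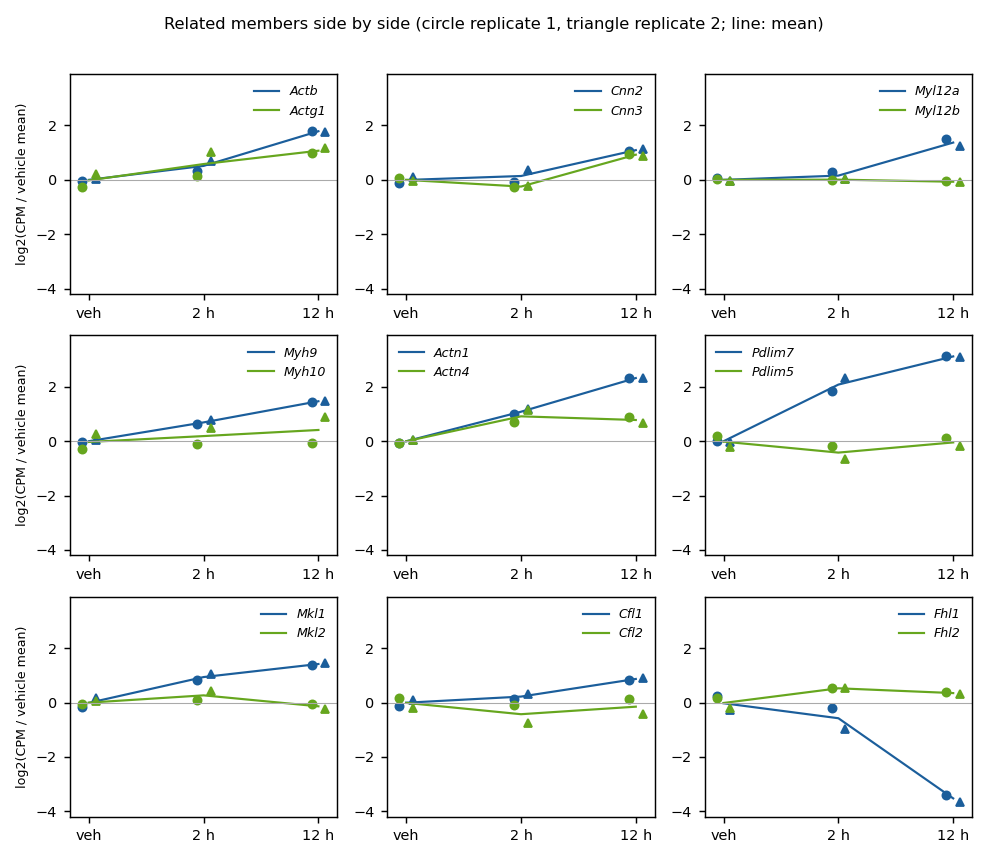
Change of each gene in 9 pairs of relatives, as log2 of CPM over the vehicle mean (vertical axis), in each library of vehicle, 2 h and 12 h, with lines through the group means. At 12 h Cnn2 and Cnn3 run closest together, and Myh10 and Cfl2 have the widest replicate spread of that time.

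Other genes of actin regulation, 147 in 9 lists, were counted for comparison, and 142 were matched by symbol (not Diap1, Diap2, Diap3, Spnb2 and Spna2). Of these, 117 were tested, and 47 were called higher and 18 lower at 12 h, after 21 and 5 at 2 h. The shares over all genes tested were 21.8% higher and 21.5% lower at 12 h, and 9.91% and 5.25% at 2 h. Their median log2FC was 0.22 at 12 h. The subunits and activators of the Arp2/3 complex, which builds branched networks, had 4 higher and 1 lower of 16 at 12 h, none of them past a log2FC of 1 in size. Among formins and Ena proteins, which elongate straight filaments, 5 of 10 were higher and 2 lower, with Fhod3 at a log2FC of 2.96, Fmnl1 at -1.11 and Fhod1 at 1.06.

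Of 5 myosin phosphatase genes 2 were higher at 12 h, where 21.8% of all genes tested were called higher and 21.5% lower. The same time and shares apply to the lists that follow. Monomer-binding, capping and severing proteins had 5 of 16 called higher, with Capg (2.61) and Tmsb4x (2.11), thymosin β4, past a log2FC of 1. Bundling and membrane-linking proteins had 7 higher and 3 lower of 13. Moesin (Msn) stood at 2.84, and the plastins Lcp1 and Pls1 at -2.73 and -2.37. Other adhesion and LIM proteins had 12 higher and 4 lower of 22, with Csrp1 at 2.04, Lims2 at 1.94 and Ablim3 at -1.93. Of 20 muscle-type genes outside the set only 5 were tested, and 1 was higher and 2 lower (Smtnl2 at -2.77 and Myh14 at -1.17).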

How the data were processed

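Strand-specific total RNA libraries of 50-base single reads were made from 6 NMuMG cultures in 3 groups. The authors filtered reads with FASTQ Toolkit, aligned them to mm9 with subjunc (Rsubread), retained those with a unique position, applied duplicate removal in SAMtools 0.1.19 and counted them over exons with featureCounts. The deposited values are raw counts of 21240 genes, not normalized or pooled. Some genes had more counts than exon bases in a library (23 of the 46, Actb up to 82.7 counts per base), so reads with the same start are among the counts. Per the labels the vehicle is named both as a dilute HCl and as a Tris-HCl solution with albumin.

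Counts were analyzed in R 4.3.3 with edgeR 4.0.16 (TMM factors, 0.961 to 1.07, quasi-likelihood test, 1 fit of all libraries) on the 11080 genes that reached 2 CPM in 2 or more libraries. Benjamini-Hochberg adjustment covered all of them within each comparison. Alternatives were limma-voom (limma 3.58.1), DESeq2 1.42.0, its size factors, total counts, 2 other filters, the replicate number as a block, fits of 2 groups, and each library left out. The study used limma 3.34.9 and edgeR 3.20.9. Exon lengths and positions were read from the GENCODE annotation of NCBIM37, which is mm9 (45 genes by symbol and 1, Myl12a, by synonym). No column was left out.

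Values of each library are given for genes past an absolute log2FC of 1 in any comparison and for actins, fold changes for other called genes, and counts for genes under the filter. From each other list at most 3 genes past that limit are named. The genes of 2 of the 9 lists are counted in the totals and are not reported here. The genes described and all lists were chosen with earlier results of these data known.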

Additional observations from a re-analysis of the deposited data

Results flagged for a closer look

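For 25 of the 38 genes tested, the effect at 12 h differed from that at 2 h by the test of the later against the earlier time (edgeR's quasi-likelihood test, adjusted p under 0.05). Of these 22 were higher and 3 lower at 12 h, where 15.2% of all genes tested were called higher and 18.9% lower. As log2FC of 12 h against 2 h, the difference was 2.41 for Tns1, 1.61 for Tpm4, 1.45 for Palld, 1.37 for Tnnt2, 1.26 for Actb, 1.24 for Actn1, 1.22 for Myl12a, 1.17 for Cnn3, 1.14 for Zyx, 1.05 for Flna and 1.02 for Pdlim7. It was 0.94 for Cnn2, 0.91 for Tagln2, 0.85 for Cald1, 0.78 for Myh9, 0.65 for Vcl, 0.65 for Cfl1, 0.51 for Myl6, 0.48 for Mkl1, 0.45 for Tpm1, 0.41 for Tpm3 and 0.35 for Tln1. It was negative for 3 genes, at -1.53 for Lima1, -1.56 for Mylk and -2.99 for Fhl1. Of these 25 calls, 11 were lost under at least 1 of the 14 alternatives. Tln1 was lost under 7, Mkl1 under 4 and Myl6 under 3. Tpm1, Tpm3 and Cfl1 were lost under 2, and Tagln2, Cnn2, Cald1, Tnnt2 and Palld under 1. Groups of 2 libraries are too small for a test of single outlying libraries.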

How the results depend on the processing

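No call changed direction under the 14 alternatives, and 24 of 29 calls at 12 h, 4 of 9 at 2 h and 14 of 25 between the times held under all of them. At 2 h, DESeq2 called 16 genes higher instead of 9, where it called 18.9% of all genes tested in either direction instead of 15.2%. With total counts in place of TMM factors, the median of all genes shifted by -0.11 at 2 h and -0.13 at 12 h, and the median log2FC of the 38 genes became 0.21 and 0.73. Leaving out 1 library gave 6 to 12 genes higher and 0 to 1 lower at 2 h, 4 to 9 past a log2FC of 1 (9 without 2 h replicate 1), and a median of 0.24 to 0.37. At 12 h it gave a median of 0.76 to 0.92. Between the times it gave 13 to 24 genes higher (14 without 12 h replicate 1, 13 without replicate 2) and a median of 0.48 to 0.67. Without either 12 h library, the share of all genes tested that was called between the times also fell, from 34.1%. The lower counts in those fits were therefore not particular to the genes described. Where an arm kept 1 library, that library was assumed to vary like the others. For the other lists, leaving out 1 library gave 11 to 24 higher and 3 to 9 lower at 2 h, 31 to 49 higher and 12 to 22 lower at 12 h, and 12 to 28 higher and 8 to 20 lower between the times. Fits of 2 groups gave 11 genes of these lists higher and 3 lower at 2 h. The replicate numbers are not stated to pair cultures. Over all genes tested, deviations from the group means correlated at 0.708 (vehicle and 2 h), 0.263 (vehicle and 12 h) and 0.392 (2 h and 12 h). Over the 38 genes they correlated at 0.784, 0.645 and 0.707, in the same order. With the replicate number as a block 19 genes were higher and 3 lower (Fhl1, Pdlim5 and Cfl2) at 2 h. At 12 h 29 were higher and 3 lower, and between the times 26 were higher and 4 lower. This fit called 29.1%, 55.3% and 48.5% of all genes tested instead of 15.2%, 43.3% and 34.1%. With the block 31 genes of the other lists were higher at 2 h. Acta1, Fhl2 and Srf were then called at 12 h (edgeR adjusted p = 0.000961, 0.0224 and 0.0117), and Srf also without either 2 h library and in the fit of 2 groups. The causes were not tested. Depth limits Tagln, Acta2, Actg2, Cnn1, Tpm2, Myl9, Synpo and Tgfb1i1, which had at most 57 counts in a library.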
